A study of Homo sapiens with 2 samples.

Results

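The regions described here are the stretches of the hg19 genome on chromosomes 16, 17, 19, 20 and 22 at which DNA captured with biotin-linked lurbinectedin was listed as enriched over input. They were taken from the authors' peak list by chromosome alone, with no condition on tags, fold, score or false discovery rate. The rule found 223 regions among the 1038 in the list (21.5%, 95% exact interval 19% to 24.1%). Chromosome 19 held 80 of them, chromosome 17 held 68, chromosome 16 held 54, chromosome 20 held 13 and chromosome 22 held 8. These chromosomes were picked as gene-dense autosomes, so their gene density is a premise and not a result.

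The cells were A549, an established line from a human lung adenocarcinoma. Exposure to the biotin-linked drug lasted 4 h, at a concentration of 300 nM. Formaldehyde (1%, 10 min) then fixed the cells, and drug-linked fragments were pulled down on streptavidin beads and sequenced, an assay called Chem-seq. The labels give 1 capture library and 1 input library, both from A549 cells with the same treatment, and the input carries the same bead entry. With no replicate, a value here has no replicate check. Intervals on tags or fragments cover counting error only. Intervals on shares and numbers of regions treat regions as independent, although neighbouring regions can share a background. No pull-down from cells without the drug is among the libraries, so capture by the drug and other capture by the beads cannot be told apart. After the caller kept 1 tag per position, the capture library held 12639402 distinct tags and the input 47414514. Duplicates made up 66.9% of tags in the capture and 3.92% in the input.

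Lurbinectedin is a synthetic relative of the marine compound trabectedin. It forms a covalent adduct with the amino group of guanine that lies in the minor groove of DNA, and it prefers guanines within certain short GC-rich contexts. The title of the series names the degradation of phosphorylated RNA polymerase II, the transcribing form of the enzyme, and breaks in DNA. Gene-dense human chromosomes are in general rich in G and C, replicate early and lie towards the inside of the nucleus. Chromosome 19, the most gene-dense, also carries large clusters of zinc-finger genes. No sequence, gene or exon is assigned to a region here, because an hg19 genome or annotation was not used.

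The 5 chromosomes did not carry regions alike. Per Mb between the first and last summit, chromosome 19 carried 1.38 regions (95% exact Poisson interval 1.09 to 1.72), chromosome 17 carried 0.854 (0.663 to 1.08) and chromosome 16 carried 0.604 (0.454 to 0.788). Chromosome 20 carried 0.261 (0.139 to 0.447) and chromosome 22 carried 0.237 (0.102 to 0.468). Pooled, the other 18 chromosomes from 1 to 22 and X carried 0.325 (0.303 to 0.349), from 813 regions. Chromosomes 16, 17 and 19 lay above that pooled level, and the intervals of chromosomes 20 and 22 included it. The 18 chromosomes themselves spread from 0.0691 to 0.604 per Mb, and the highest of them, chromosome 15, equalled chromosome 16.

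Set against gene number, the picture had a different shape. The 3 chromosomes 16, 17 and 19 carried 6.32, 5.82 and 5.51 regions per 100 protein-coding genes of the GRCh38.p14 table, and their intervals overlapped widely. Chromosome 19 against chromosome 17 stood at 1.62 times per Mb (95% exact interval 1.15 to 2.27) and at 0.948 times per gene (0.677 to 1.33). Chromosome 20 carried 2.42 per 100 genes (1.29 to 4.14) and chromosome 22 carried 1.77 (0.766 to 3.50). Those 2 chromosomes together held 21 regions beside 988 genes, and chromosomes 16, 17 and 19 held 202 beside 3474. Per gene the second group stood 2.74 times above the first (95% exact interval 1.74 to 4.52). Per Mb the same ratio was 3.54 (2.25 to 5.84). The 2 groups were formed after the densities had been seen, so these ratios and their intervals are descriptions and not a test. Over all 5 chromosomes the number per 100 genes was 5.0 (4.36 to 5.70), close to the 5.24 (4.89 to 5.61) of the other 18. Taken singly, those 18 spread from 1.06 to 8.53 per 100 genes, a range that holds each of the 5 chromosomes. Genes were counted on another build than the regions. The other 18 chromosomes were not all gene-poor. Among them, chromosome 11 had 1301 of these genes over 117 Mb between its first and last summit. Chromosome 16 had 854 over 89.4 Mb. In the deposited numbering 27 peak numbers are skipped within these 5 chromosomes, 15 of them on chromosome 16 and 2 on each of chromosomes 20 and 22. Regions behind those numbers were not analysed here.

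**Figure D1:**
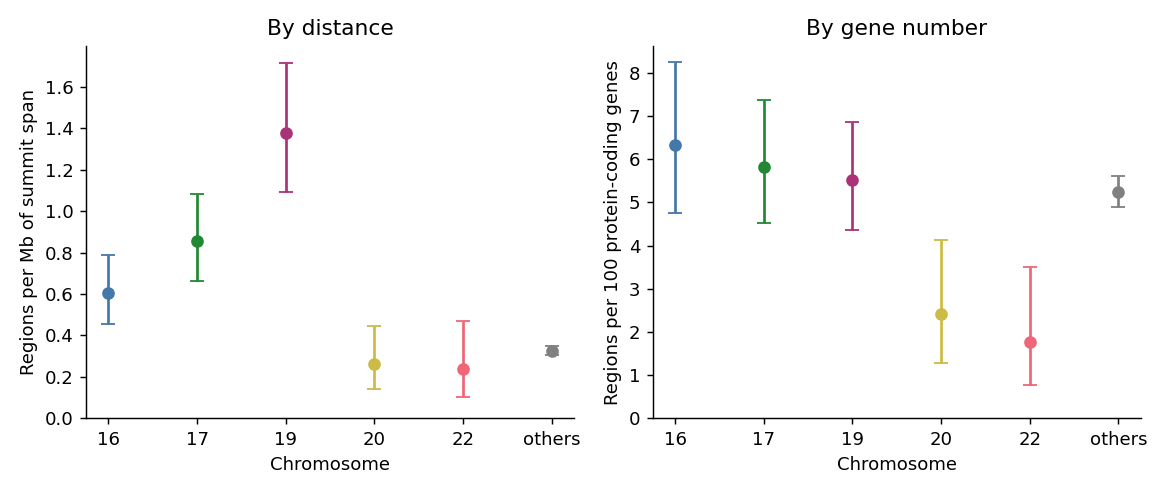
Regions per Mb between the first and last summit (left) and per 100 protein-coding genes (right) for chromosomes 16, 17, 19, 20 and 22 and for the other 18 chromosomes together, with 95% exact Poisson intervals as bars. Chromosomes 16, 17 and 19 spread from 0.604 to 1.38 per Mb but from 5.51 to 6.32 per 100 genes, and chromosomes 20 and 22 are lowest among the 5 on both axes.

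Within the chromosomes the regions were not spread evenly. On chromosome 19 the first 10 Mb held 25 regions and the next 10 Mb held 13. A single region lay between 20 and 30 Mb, the stretch around the centromere, where the longest interval between summits ran for 7.90 Mb from 22287054 to 30182342. The 1 peak number skipped on this chromosome falls in that interval. Beyond it, 16 regions lay between 30 and 40 Mb, 17 between 40 and 50 Mb and 8 in the rest. On chromosome 17 the first 10 Mb held 3 regions, whereas the windows from 30 to 40 Mb and from 70 to 80 Mb held 15 and 16. Chromosome 16 carried 11 regions in its first 10 Mb and 3 to 7 in each later window. Its longest interval, 12.4 Mb, ran from 34243224 to 46689606 across the centromere and its neighbouring heterochromatin. A run of 8 skipped peak numbers falls within this interval, so it need not have been free of called peaks. The regions of chromosome 20 were scattered singly except for 1 pair, with a median of 3635 kb between neighbouring summits against 345 kb on chromosome 19.

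Enrichment at the summit was moderate and rested on few tags. Fold enrichment, as the authors' caller gave it, is the number of capture fragments over the summit divided by the local background from the input. It had a median of 7.54 over the 223 regions (interquartile range 6.5 to 8.74), with extremes of 3.59 and 14.36. The 815 regions on other chromosomes had a median of 8.03 (7.16 to 8.90). Fold lay between 7 and 9 in 104 regions, between 5 and 7 in 77, between 9 and 11 in 29, below 5 in 9 and above 11 in 4. By chromosome the median fold was 8.08 on chromosome 16, 7.23 on chromosome 17, 7.36 on chromosome 19, 7.77 on chromosome 20 and 8.77 on chromosome 22. Chromosome 17 was the narrowest of the 3 large groups, from 4.26 to 9.35, and chromosome 19 the widest, from 3.59 to 14.36. The false discovery rate was listed as 0 for 63 regions (28.3%), where 24.9% of the whole list had that value.

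**Figure D2:**
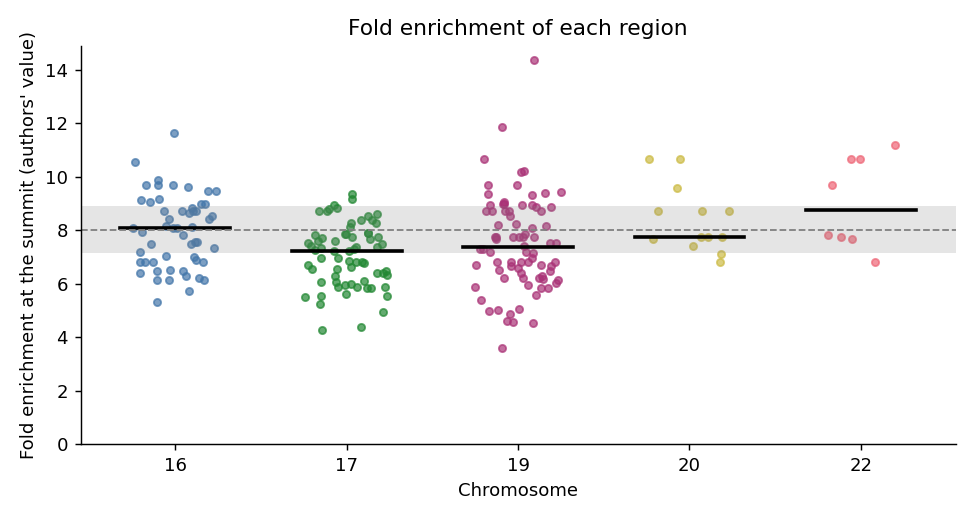
The authors' fold enrichment at the summit for each of the 223 regions by chromosome; points are regions, black bars medians, the dashed line and grey band the median and interquartile range of the 815 regions on other chromosomes. The points of chromosome 17 end at 9.35, while chromosome 19 runs from 3.59 to 14.36.

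The strongest region by fold on each chromosome shows what the list consists of. On chromosome 19 it lay at 47551274 to 47551769 (496 bp), where 16 of 17 tags overlapped at the summit. Its fold of 14.36 had a 95% Poisson interval, from the fragments over the summit, of 8.21 to 23.3. Fold intervals here take the background as exact and make no allowance for picking the highest regions. On chromosome 16 it lay at 89122871 to 89123536, with 14 tags, 12 over the summit and a fold of 11.65 (6.02 to 20.4). On chromosome 22 it lay at 17048158 to 17049065, with 19 tags, 13 over the summit and a fold of 11.18 (5.95 to 19.1). All 3 had a local background near the genome mean, at 1.00 to 1.13 times it. On chromosome 20 the strongest lay at 2569463 to 2570124, with 15 tags and a fold of 10.68 (5.33 to 19.1). On chromosome 17 it lay at 80309236 to 80310051, with 20 tags and a fold of 9.35 (4.98 to 16). Since these intervals overlap, the order of the 5 is not resolved at this depth.

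The 10 regions of highest fold stood between 10.55 and 14.36 and each held 12 to 20 tags. Chromosome 17, with 68 regions, gave none of them. Chromosome 22 gave 3 from its 8 regions, chromosome 19 gave 3, and chromosomes 16 and 20 gave 2 each. In 1 of them, on chromosome 19 at 3006268 to 3006694, all 13 tags overlapped at the summit, for a fold of 11.85 (6.31 to 20.3). A further 4 regions shared a fold of exactly 10.68 with the region on chromosome 20 named above, because each had 11 fragments over its summit and a background at the genome mean. One starts at 3783869 of chromosome 19, another at 13135935 of chromosome 20, and the last 2 at 24861766 and 50758634 of chromosome 22; they held 12 or 13 tags. Such ties show that fold moves in steps of whole fragments here.

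The 10 regions of highest caller score were mostly others. The score, which is 10 times the negative log10 of p, depends on all tags of a region and not on the height of its summit. The highest score, 192.83, belonged to a region on chromosome 16 (33293599 to 33294881, 1283 bp) with 91 tags where 29.8 were expected. A pair on chromosome 20 (26188600 to 26189536 and 26189621 to 26190713) held 71 and 75 tags where 26.7 and 28.0 were expected. In all 3 of these the input itself was dense, at 4.95, 6.08 and 5.47 times the genome mean, and what raised it was not tested.

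The other 7 lay in backgrounds of 1.08 to 1.37 times the genome mean, and 4 of them were at least 1 kb wide. On chromosome 19, the region at 19121429 to 19122674 (1246 bp) scored 98.75 with 28 tags, of which 8 overlapped at the summit, and its fold was 6.82 (2.94 to 13.4). On chromosome 17, the region at 41207990 to 41209489 (1500 bp) scored 96.75 with 34 tags, 9 of them over the summit, and its fold was 6.39 (2.92 to 12.1). Only 26.5% and 28.6% of the tags of these 2 regions, in the order chromosome 17 and chromosome 19, lay over the summit, where the median region of the 223 had 60.0%. The region on chromosome 19 at 2427109 to 2427890 combined both features, with 22 tags, 12 over the summit and a score of 98.8. Common to both lists, the 10 highest by fold and the 10 highest by score, were 2 regions: the one on chromosome 19 at 47551274 and one on chromosome 16 at 49889308 to 49889996, which held 20 tags at a fold of 10.55 (5.45 to 18.4).

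The number of tags by which a region passed was small for most of them. With background and width held as they were, the tags needed to reach the caller's threshold can be computed for each region. Of the 223 regions, 113 (50.7%, 95% exact interval 43.9% to 57.4%) held exactly that number, and would not be listed with 1 tag fewer. The same share of the whole list was 57.9%. With 3 tags fewer, 193 of the 223 (86.5%) would not be listed, against 91.7% of the list. At the other end, 14 regions (6.28%, against 2.99% of the list) stood at least 5 tags above the minimum: 7 on chromosome 19, 3 on chromosome 16, and 2 each on chromosomes 17 and 20. The region at 33293599 on chromosome 16 stood 35 above it, and the pair on chromosome 20 stood 20 and 22 above it. The region at 41207990 on chromosome 17 stood 9 above and the one at 19121429 on chromosome 19 stood 8 above.

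**Figure D3:**
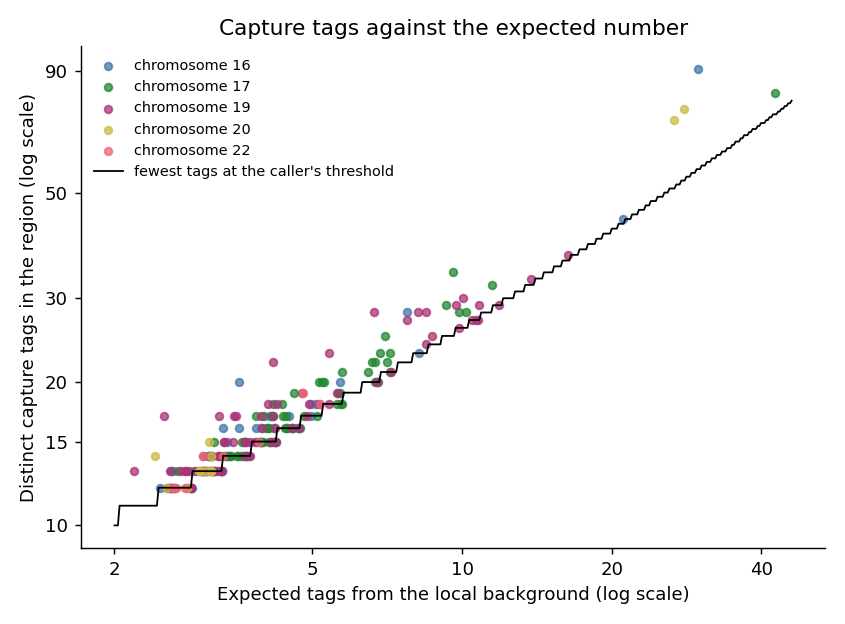
Distinct capture tags in each of the 223 regions against the number expected from its local background, both on log scales and coloured by chromosome; the line is the fewest tags that reach the caller's threshold. Most points touch the line or lie within a few tags of it, 113 of them exactly on it, and the point with 91 tags belongs to chromosome 16.

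Behind each fold stands a local background, for which the caller takes the input density nearby, scaled to the capture library, unless the genome mean is higher. Its median over the 223 regions was 1.2 times the genome mean, with the middle 50% between 1.04 and 1.45; over the other 815 it was 1.08 (1.00 to 1.23). It lay at the genome mean, the lowest value the caller allows, in 42 of the 223 (18.8%, 95% exact interval 13.9% to 24.6%), where the whole list had 27.5%. The 5 chromosomes differed from one another. The median was 1.4 on chromosome 17, 1.14 on chromosome 19 and 1.09 on chromosome 16, and 14 of the 21 regions on chromosomes 20 and 22 lay at the genome mean. Without chromosome 17, the median over the remaining 155 regions was 1.10. A background of at least 1.5 times the genome mean was recorded in 47 of the 223 regions (21.1%) and in 58 of the other 815 (7.12%), or 10.1% of the whole list.

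On chromosome 19 the high values lay next to each other. From the region at 30181887 to the one ending at 42788019, 22 regions in a row had a median background of 1.81 times the genome mean, with a range from 1.14 to 2.35. In 19 of these 22 the background was at least 1.5, against 1 of the 58 regions elsewhere on the chromosome. The 39 regions before this block had a median of 1.06 (highest 1.31) and the 19 after it had a median of 1.10. The block was marked out after the values had been seen, so no test is given for it. Values below 1.5 inside the block stood at 30871727 (1.2), 37603874 (1.14) and 41340856 (1.39). The next summit past the block, at 45448467, had a background of 1.03.

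Regions inside the block were broader and held more tags than the rest of chromosome 19, at lower fold. Their median width was 1014 bp, against 651 bp for the 58 outside it. Their median number of tags was 27, against 14. The summit itself was covered by 11 fragments in the median, against 9, and the median fold was 5.86, against 7.82. The lowest fold of all 223 regions was in the block, at 39256747 to 39257949, where 27 tags were spread over 1203 bp, 7 lay over the summit and fold came to 3.59 (1.44 to 7.40). The most tags in the block were 37, at 33532514 to 33534044, with 15 over the summit and a fold of 6.39 (3.58 to 10.5). The number of tags a region needs grows with both background and width. It was 11 to 14 for the 42 regions at the genome mean, which were 515 to 787 bp wide, and 36 for the region at 33532514, which was 1531 bp wide. The difference in tags is thus partly set by the caller. The lower fold is partly built in too, since background divides the fold and the block was marked out by its background. Of the block's regions 10 of 22 held exactly the minimum, and of the others on the chromosome 26 of 58. The density of regions was 1.75 per Mb in the block (95% exact Poisson interval 1.09 to 2.64), 1.82 before it and 1.41 after it.

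On chromosome 17 the change in background came early. The 7 regions before 20 Mb had a median of 1.00, and 4 of them, at all 3 positions in the first 10 Mb and at the last summit before the gap (17701532), lay at the genome mean. The rest of the 7 had 1.48 at 15902612, 1.14 at 17045354 and 1.23 at 17317661, so the change was not a clean step. After 17701532 the next listed summit, past a run of 6 skipped peak numbers, was at 28648572, where the background was 1.59. None of the 61 regions from there to the end of the chromosome was at the genome mean, and their median was 1.43 with a lowest value of 1.10. The windows of 10 Mb from 20 Mb on had medians between 1.3 and 1.5. Regions after 20 Mb held a median of 17 tags, against 13 before. The median fold was 7.23 after 20 Mb (interquartile range 6.09 to 7.85) and 7.77 before it (6.36 to 8.255). This split too was chosen after the values had been seen, and what raised the input on either chromosome was not tested. Chromosome 16 showed no such stretch: its windows of 10 Mb had medians between 1.03 and 1.14.

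**Figure D4:**
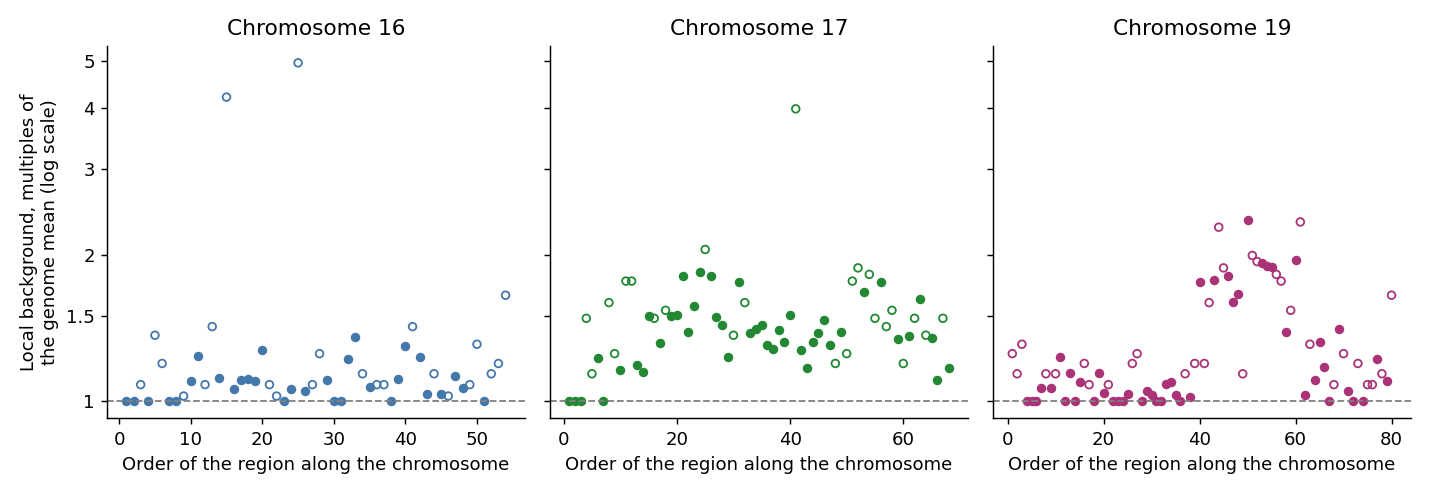
Local background of each region in multiples of the genome mean (log scale) against the order of the region along chromosomes 16, 17 and 19; open circles are values that equal a whole number of input tags in 1 kb. On chromosome 19 the 22 regions of the block stand between 1.14 and 2.35, and on chromosome 17 the 61 later regions all stand at 1.10 or above.

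How the caller arrived at a background can be read from the values. Of the 181 regions above the genome mean, 173 had a background within 0.1 of a whole number of input tags per 10 kb. In 80 of the 181 (44.2%), at the same tolerance, that number was a multiple of 10, and so also a whole number of tags in the shorter window of 1 kb. On other chromosomes the share was 43.5%. For the 76 of these 80 regions with a background of at most 3 times the genome mean, the 1 kb window would hold a median of 22 input tags, with a 95% Poisson interval from 13.8 to 33.3. In 10 kb the genome mean alone is 176 tags, with an interval from 151 to 204. Of the 22 regions in the block on chromosome 19, 11 had a background that is such a multiple, and the other 11 had a median background of 1.81. Since the block was marked out by its high values, this is a description.

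Folds were also set side by side with background held in ranges. At the genome mean the median fold was 8.74 in both sets (42 and 243 regions). Above it and up to 1.2 times it, the medians were 8.12 (78 regions) and 8.10 (350 regions). Between 1.2 and 1.5 times they were 6.92 (56 regions, interquartile range 6.2 to 7.64) and 7.5 (164 regions, 6.75 to 8.47). Between 1.5 and 2 times they were 6.09 (38 regions) and 6.17 (46 regions). The last 2 ranges held few regions. Between 2 and 3 times the medians were 4.56 (4 regions) and 5.02 (1 region), and above 3 times they were 7.1 (5 regions) and 5.38 (11 regions). The medians of the 2 sets were thus closest up to 1.2 times the mean and furthest apart above 3 times. The sets differed in how their regions were divided among these ranges, with 17% of the 223 and 5.64% of the 815 between 1.5 and 2 times. Regions are not replicates, so these differences carry no test. Across the 223 regions, which share both libraries, fold and background had a Spearman rho of -0.59, and tags and background a rho of 0.75. Background divides the fold and sets the tags needed, so both relations are partly built in.

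Broad regions were a larger part of this set than of the list. A width of at least 1 kb was found in 26 of the 223 (11.7%, 95% exact interval 7.76% to 16.6%), against 5.11% of the whole list and 27 of the other 815 (3.31%, 2.19% to 4.78%). Chromosome 19 held 13 of the 26, of which 11 lay in the block between 30181887 and 42788019. Chromosome 17 held 7, chromosome 16 held 5, chromosome 20 held 1 and chromosome 22 none of its 8. The widest of all, on chromosome 17 at 62915951 to 62918230 (2280 bp), held 81 tags where 42.5 were expected, in a background of 3.99 times the genome mean, and its fold was 4.38. The broad regions had a median background of 1.83, against 1.14 for the other 197. They were not denser by the same margin, with a median of 24.0 tags per kb against 22.1. Among the 26, 3 had a background below 1.2. On chromosome 16 the one at 67432872 to 67433875 held 18 tags at 1.08 times the genome mean and a fold of 9.87, and the regions at 917555 and 19121429 on chromosome 19 both stood at 1.14.

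A background of more than 3 times the genome mean was found in 5 of the 223 (2.24%, against 1.54% of the list), which held 362 of the set's 4024 tags (9%). Besides the 3 of highest score and the widest region on chromosome 17, the fifth lay on chromosome 16 at 14580401 to 14581470. It held 44 tags, 30 of them over the summit, at a fold of 6.91 in a background of 4.21, and stood 1 tag above its minimum. Chromosomes 19 and 22 had none. All 223 regions together held 3.54 times the tags their backgrounds implied (4024 against 1138). That ratio was 3.79 for the other 815, 3.74 on chromosome 16, 3.36 on chromosome 17, 3.58 on chromosome 19 and 2.86 in the block. These ratios are partly set by the caller, since each region had to reach a minimum number of tags. That minimum was 13 where 3.17 were expected, at 601489 on chromosome 16. It was 36 where 16.3 were expected, at 33532514 on chromosome 19.

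Another listed summit lay within 100 kb of 48 of the 223 (21.5%, 95% exact interval 16.3% to 27.5%), against 13.4% of the whole list. These chromosomes together carried 2.21 times the regions per Mb of the others (95% exact interval 1.89 to 2.56). A higher share with near neighbours is thus partly built in, and clustering beyond density was not tested. The share was 27.5% on chromosome 19 and 26.5% on chromosome 17. It was 25% on chromosome 22 (2 of 8 regions, 95% exact interval 3.19% to 65.1%). On chromosome 20 it was 15.4% (2 of 13, 1.92% to 45.4%). The shares of chromosomes 20 and 22 each rest on 1 pair, so their place in an order is not resolved. The share was 7.41% on chromosome 16, where the median distance to the nearest summit was 293 kb, close to the 270 kb of chromosome 17. Within 10 kb, 15 of the 223 (6.73%) had a neighbour, against 2.6% of the list. They formed 8 neighbouring pairs, 4 on chromosome 19 and 1 on each other chromosome, and none of the 4 lay in the block of high background.

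The close pairs gave both unequal and nearly equal folds. On chromosome 16, summits 1333 bp apart in regions at 19325554 and 19327046 carried 7 and 11 fragments, with folds of 6.15 and 9.62. On chromosome 17, a broad region at 38653482 with a fold of 4.26 stood 9337 bp from one at 38663282 with 16 fragments over its summit and a fold of 8.61. The 3 regions at 913134, 917555 and 925438 on chromosome 19 had folds of 6.20, 9.38 and 8.16. The pair at 1492110 and 1496460 was more even, at 9.71 and 8.74. On chromosome 22, the regions at 17043759 and 17048158 had folds of 7.82 and 11.18, and the second is the strongest of that chromosome. With 7 to 16 fragments a summit, the intervals of the folds overlap within these pairs. The edges of 2 pairs nearly touch: 17 bp separate the regions at 3783869 and 3784527 on chromosome 19, and 84 bp separate the regions of the chromosome 20 pair.

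**Figure D5:**
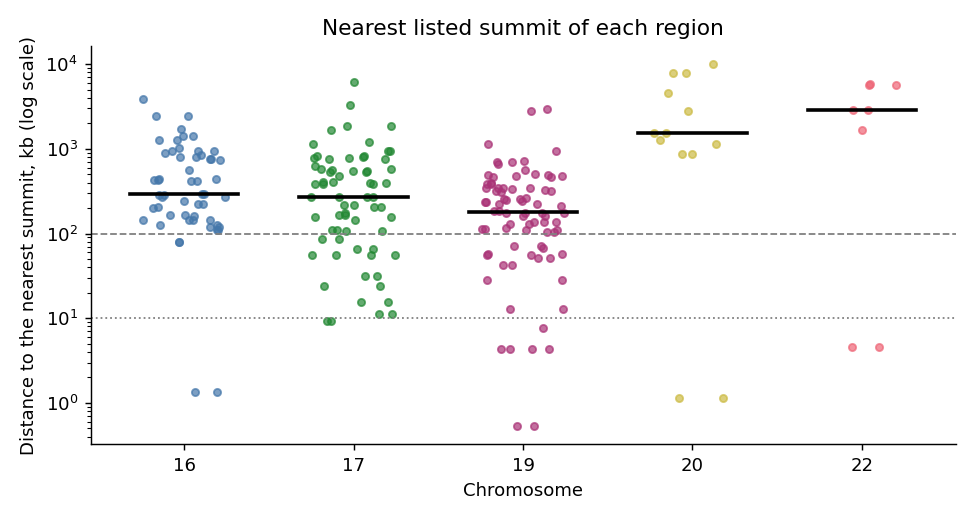
Distance in kb from each of the 223 summits to the nearest other listed summit on its chromosome (log scale), with black bars at the medians and lines at 10 and 100 kb. Chromosome 19 has the lowest median, 179 kb, and on chromosomes 20 and 22 a single close pair stands apart from regions at least 867 kb from any other.

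Chromosome 20 and chromosome 22, gene-dense but sparse in regions, can be described almost region by region. On chromosome 20, 11 of the 13 regions held 12 to 15 tags in a background between 1.00 and 1.05, with folds from 6.80 to 10.68. The remaining 2 are the adjoining pair at 26188600, which lies beside the centromere and held 71 and 75 tags. On chromosome 22 the 3 regions nearest the centromere, at 17043759, 17048158 and 18717944, had backgrounds of 1.37, 1.13 and 1.89. The other 5, from 21996332 to 50759194, all lay at the genome mean, with 12 or 14 tags and folds from 6.80 to 10.68. The region at 18717944 was the narrowest of the 223, at 421 bp, and all 15 of its tags overlapped at the summit for a fold of 7.69 (4.31 to 12.7).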

How the data were processed

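Peaks had been called once by the authors with MACS 1.4.2 on 1 capture against 1 input library, per the file headers, with an effective genome size of 2700000000 bp, a fragment length of 220 bp, 1 tag per position and a p-value under 1e-05. Per the submitters' processing notes, CASAVA 1.8.2 and Bowtie were used, with hg19 as the build. Deposited values are tags as whole counts, fold enrichment as a ratio, the false discovery rate as a percent, and a score whose column name was lost to a spreadsheet error. It was taken for 10 times the negative log10 of p because of where it stands among the columns and because no listed value is below 50.01. Fold, score and false discovery rate are the authors' own values and only describe and rank regions.

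Expected tags were solved from the Poisson tail of tags and score, and divided by width (at least 440 bp) to give the local background. Fold times background gave the summit pileup, a whole number within 0.05 in 221 of 223 regions; the remaining 2 were rounded. On 223 simulated regions the calculation recovered 100% of pileups, which checks the arithmetic alone. A background within 0.001 of the genome mean was called at the mean. Poisson and binomial (Clopper-Pearson) intervals are exact at 95%. The 95% intervals of medians, used only to sort the alternative values below, are order-statistic intervals over regions from the same binomial. They describe spread among regions and not counting error. Python 3.11.15 and SciPy 1.17.1 were used.

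With 1 library a group no test between groups was possible, and regions are not replicates. Named regions are the 10 of highest fold, the 10 of highest score and the highest fold on each chromosome; others were named after their values were seen. The regions and measures were chosen with earlier results of these data known. Planned analyses of gene position, base composition, triplets and gene lists were not run for want of an hg19 genome.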

Additional observations from a re-analysis of the deposited data

How the results depend on the processing

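No paired analysis was possible because there is 1 capture and 1 input library. Of 50 alternative values, 34 stayed within the 95% interval of the value reported and 16 moved outside it; the alternatives for fold and for neighbours (except merging touching regions) were planned, and the others were chosen after seeing the data. At a score of at least 60 (68 regions) or a false discovery rate of 0 (63 regions), the median fold was 7.85 and 7.84, the share with a neighbour within 100 kb was 8.82% and 9.52%, and the share of at least 1 kb was 22.1% and 23.8%. The share at the minimum number of tags was 0% in both, which follows from how those filters are built. In the same order, the 5 chromosomes held 25.3% and 24.4% of the list. A neighbour lay within 10 kb for 6.73% and within 1 Mb for 84.8%. Widths of at least 800 bp and 1200 bp were found in 27.8% and 4.93%. The median background was 1.25 without chromosome 16 and 1.10 without chromosome 17. Where the change does not follow from a filter's construction, the cause was not tested. The summit rests on 7 to 16 fragments in all but the 5 regions of high background, which limits every ranking by fold. Alternatives for gene position, base composition and triplets were not run.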
